A study of Mus musculus with 12 samples.

Results

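Hearts of mice that received losartan during an angiotensin II (Ang II) infusion were compared with hearts of mice that received Ang II alone, by RNA sequencing. The comparison rests on 6 of the 12 libraries of the series, 3 with losartan and 3 without, which were taken by the treatment in their titles. Of 47729 genes in the count table, 15336 had enough reads to be tested, and none was chosen by its value. All mice were male C57BL/6 animals aged 8 weeks at the start. Both groups carried a subcutaneous osmotic pump that delivered Ang II for 28 days. The losartan group had the drug at 0.6 g/L in its drinking water over the last 2 weeks, and the Ang II group had vehicle over the same time. A saline group and a group given Ang II with oral EHP-101 at 20 mg/kg, each of 3 libraries, shared the fit. No transgene or deletion is named for any group. The labels name the tissue as heart without saying which chambers were taken, and nothing in them states that each replicate is its own animal, so the p-values cover just the scatter of these samples, and that scatter may be technical.

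Ang II acts mainly through the AT1 receptor, a G protein-coupled receptor on vascular smooth muscle, adrenal cells, fibroblasts and cardiomyocytes. It raises blood pressure, and over weeks the heart responds with growth of cardiomyocytes and with deposition of collagen by activated fibroblasts. Losartan is an antagonist of AT1 and is used against hypertension, so the comparison asks what the transcriptome of an Ang II heart looks like when the receptor is blocked late in the infusion.

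Values are CPM, counts scaled to a common library size, after scaling by TMM, which evens out differences in library composition. Differences are log2 fold changes of losartan with Ang II minus Ang II alone, ± SE, from the quasi-likelihood test of edgeR, adjusted by Benjamini and Hochberg's method over all tested genes, and a gene is called at an adjusted p under 0.05. The losartan libraries held 22574756, 23266399 and 23730465 counts and the Ang II libraries 23679074, 23585132 and 24040516. Pan-cardiomyocyte genes were abundant throughout, with Myh6, the main myosin heavy chain of the adult mouse heart, at 15030, 21960 and 24010 CPM under losartan and 18150, 20830 and 16750 under Ang II. In bulk tissue, fewer cells of a type and less RNA per cell cannot be told apart.

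Several libraries stood apart. Losartan replicate 1 had 25.4% of its counts on genes of the mitochondrial genome, against 21.1% and 20.8% in replicates 2 and 3, and it differed from them by a chi-square of 49.09 and 57.99 per degree of freedom, where replicates 2 and 3 differed by 16.63. Control replicate 2, in neither of the groups compared, shares their choice of tested genes, scaling and estimate of spread, and the fit of any covariate. It lay at 84.37 on the first principal component, and the other 11 libraries lay between -32.41 and 12.72.

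Markers of atrial cardiomyocytes differed between the libraries. Their score, the mean scaled log2 CPM of 19 genes, was -0.58, 0.64 and -1.40 in losartan replicates 1 to 3 and 1.02, 0.61 and 0.46 in the Ang II libraries. All 19 were tested and 18 had a log2 fold change below 0. Their summed level ran from 1409 to 5215 CPM under losartan, from 4552 to 6634 under Ang II and from 2135 to 5011 in saline controls. The atrial myosin light chains Myl7 and Myl4 and the calcium pump regulator sarcolipin (Sln), picked here after their values were seen, were as high in losartan replicate 2 as under Ang II and low in replicates 1 and 3. Myl7 was at 40.4, 479 and 3.67 CPM under losartan and 539, 362 and 312 under Ang II. Myl4 was at 69.3, 724 and 8.43 against 762, 490 and 417, and Sln at 15.1, 148 and 0.59 against 160, 97.2 and 77.5. Bmp10, a growth factor of atrial cardiomyocytes, was at 1.02, 0.711 and 0.0422 CPM under losartan and 507, 340 and 223 under Ang II (log2 fold change -9.24 ± 2.74, adjusted p = 0.358 in edgeR and 0.00347 in DESeq2). Hamp, which encodes the iron hormone hepcidin, was at 0.511, 0.627 and 0 CPM against 8.05, 5.61 and 4.80. Both genes also varied widely within the other groups. Bmp10 was at 177.2, 0.0538 and 10.5 CPM in saline controls and 1.65, 0.14 and 134.8 under EHP-101. Hamp was at 5.93, 0.323 and 2.04 CPM in saline controls and 1.35, 0.187 and 4.42 under EHP-101. In losartan replicate 2, a single library, the atrial light chains were at the Ang II level and Bmp10 and Hamp were far below it. Losartan and Ang II libraries did not overlap for Bmp10 and Hamp, nor for Clu and Nr2f1. Clu, the secreted chaperone clusterin, was at 665.5, 801.5 and 478.3 CPM against 1210, 929.0 and 1156, and Nr2f1, a transcription factor, at 2.51, 2.84 and 2.91 against 5.96, 3.61 and 4.01. The part of the atrial signal in the results below was not tested, and medians with the atrial score as a covariate are given beside those of the gene lists. That covariate was fitted over all 12 libraries, so its values also depend on Control replicate 2. The score of that library was -1.1, beside 0.28 and 0.56 in saline replicates 1 and 3. Without losartan replicate 2 the log2 fold changes of Myl7, Sln and Myl4 were -4.20, -3.84 and -3.84, where all libraries gave -1.21, -1.03 and -1.06, and that of Nr2f1 went from -0.72 to -0.46 without Ang II replicate 1.

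**Figure D1:**
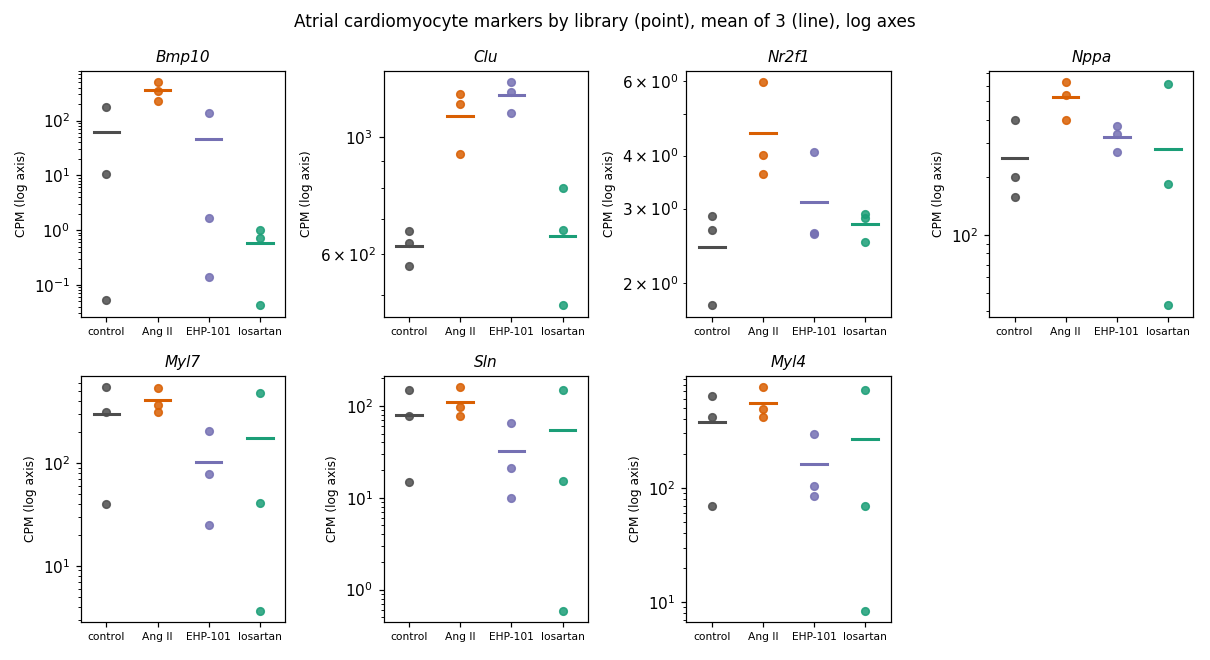
Atrial cardiomyocyte markers in CPM on log axes for each library (points) and the mean of 3 libraries (lines) in the saline, Ang II, EHP-101 and losartan groups. Myl7, Sln and Myl4 spread widely within the losartan group, and Bmp10 lies at or below 1.02 CPM in its 3 libraries. Bmp10 also spreads widely within the saline and EHP-101 groups.

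edgeR called 0 genes between losartan with Ang II and Ang II alone, with a smallest adjusted p of 0.123. At an unadjusted p under 0.05, 942 genes (6.14% of those tested) were lower under losartan and 347 (2.26%) were higher. The 3 losartan libraries all lay below the 3 Ang II libraries for 1603 genes (10.5%) and above them for 1414 (9.22%). The other tools differed in their counts. DESeq2 called 101 genes lower (0.672% of 15030 with an adjusted p) and 5 higher (0.0333%), limma-voom called 0, and limma-voom with quality weights, which gave losartan replicate 1 a weight of 0.389 and Control replicate 2 one of 0.112, called 473 lower (3.08%) and 136 higher (0.887%). Of the 106 DESeq2 calls, 98 were also called with quality weights and 105 had groups that did not overlap. With the atrial score in the DESeq2 model 12 of the 106 were called, and 10 were called in each of 7 DESeq2 fits that left out an Ang II library, a losartan library or Control replicate 2. DESeq2 called 10 genes without Ang II replicate 3, 22 without Ang II replicate 1, 26 without losartan replicate 3 and 69 without losartan replicate 1, and 159 without losartan replicate 2, 238 without Ang II replicate 2 and 369 without Control replicate 2.

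Since edgeR called none, the genes with the smallest p in each direction are described, 10 lower and 9 higher, among those whose groups did not overlap. None passed in edgeR, and their adjusted p ran from 0.123 to 0.166 for the lower genes and from 0.184 to 0.316 for the higher ones. The lower genes were Smad6, Tmem45a, Socs3, Dio2, Cilp, Tmem119, Tppp3, Fstl1, Emp1 and Tnc, and DESeq2 called each of them. The 10 genes that DESeq2 called in each of its 7 leave-out fits were the first 9 of these with Vsig4, a complement receptor of resident macrophages, named after its values were seen.

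Smad6, an inhibitor of BMP and TGF-beta signalling, was at 6.83, 7.28 and 7.93 CPM under losartan and at 18.0, 14.1 and 13.3 under Ang II. The groups did not overlap, and the log2 fold change was -1.04 ± 0.15 (2.06-fold lower; adjusted p = 0.123 in edgeR and 6.92e-06 in DESeq2). Saline controls held 11.8, 12.7 and 9.80 CPM and the EHP-101 group 13.4, 14.3 and 12.8, so each losartan library lay below each of the other 9. Smad6 (ENSMUSG00000036867) spans chromosome 9 from 63953076 to 64022059 on the minus strand of GRCm38. In the same annotation Socs3 (ENSMUSG00000053113) spans chromosome 11 from 117966079 to 117970047, Dio2 (ENSMUSG00000007682) chromosome 12 from 90724552 to 90738438, Cilp (ENSMUSG00000042254) chromosome 9 from 65265180 to 65280605 and Cxcl1 (ENSMUSG00000029380) chromosome 5 from 90891241 to 90893115.

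Socs3, a feedback inhibitor that cytokines of the IL6 family induce through STAT3, was at 7.53, 6.27 and 5.82 CPM under losartan and 12, 11.4 and 13.5 under Ang II. Its log2 fold change was -0.91 ± 0.15 (adjusted p = 0.166 in edgeR and 8.63e-05 in DESeq2), and the saline libraries, at 7.10, 7.70 and 6.84, held about what the losartan libraries held. Dio2, the deiodinase that activates thyroid hormone within cells and that cyclic AMP induces through its promoter, was at 14.4, 14.3 and 11.2 CPM against 39.6, 23.6 and 39.1 under Ang II (log2 fold change -1.36 ± 0.23, adjusted p = 0.166 in edgeR and 8.63e-05 in DESeq2). Saline controls held 7.60, 6.94 and 8.30 CPM of Dio2, and losartan libraries lay between these and the Ang II libraries. Gm26512, an opposite-strand gene, overlaps an exon of Dio2, and these reads cannot separate them.

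For these 2 genes the 250 bases upstream of the RefSeq start (build GRCm38.p6) are shown because each holds a motif of the pathway named above, in capitals and searched on both strands. The Socs3 window is chr11:117969367-117969616 on the minus strand, with a STAT-type motif (TTCNNNGAA) that begins 154 bases before the start. Part of that window is an exon of a noncoding Socs3 transcript in GENCODE M21. The Dio2 window is chr12:90739039-90739288 on the minus strand, upstream of the RefSeq start and beyond the end of the gene in GENCODE M21 at 90738438, with a cyclic AMP response element (TGACGTCA) that begins 95 bases before the start.
Socs3: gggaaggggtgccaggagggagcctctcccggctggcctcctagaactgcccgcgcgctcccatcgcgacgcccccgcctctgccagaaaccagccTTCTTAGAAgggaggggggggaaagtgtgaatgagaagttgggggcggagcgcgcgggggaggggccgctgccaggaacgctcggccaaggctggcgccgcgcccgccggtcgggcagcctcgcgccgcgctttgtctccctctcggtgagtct
Dio2: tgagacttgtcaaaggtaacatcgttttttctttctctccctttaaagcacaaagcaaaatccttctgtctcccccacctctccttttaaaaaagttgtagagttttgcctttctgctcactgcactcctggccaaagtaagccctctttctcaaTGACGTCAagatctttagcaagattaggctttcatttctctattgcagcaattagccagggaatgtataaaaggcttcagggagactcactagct
The first motif is in 7.02% of 32851 upstream windows of the RefSeq table and the second in 1.55%. A match describes these letters and does not show that a factor bound there.

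Emp1, a membrane protein of the PMP22 family, was at 142, 136 and 134 CPM under losartan and 279, 211 and 297 under Ang II (log2 fold change -0.93 ± 0.17). Fstl1, a secreted BMP-binding protein of cardiac fibroblasts, was at 203, 259 and 194 against 435, 331 and 490 (log2 fold change -0.94 ± 0.17). Tmem119, known as a marker of microglia and also expressed in bone-forming cells, was at 7.16, 8.74 and 4.93 against 18.6, 13 and 17.8 (log2 fold change -1.25 ± 0.22). In these 3 genes each losartan library was below each Ang II library, and the adjusted p of each was 0.166 in edgeR. Tmem45a was at 4.74, 6.11 and 4.85 CPM against 12.2, 10.7 and 17.1 (log2 fold change -1.35 ± 0.20), with saline controls at 6.10, 6.57 and 4.42. Tppp3, a tubulin-binding protein, was at 17.6, 19.7 and 19.0 against 36.5, 27.4 and 29.1 (log2 fold change -0.72 ± 0.13) and lay below its saline level of 28.5, 28.9 and 23.9. Without Control replicate 2, edgeR called 3 genes, Smad6, Tmem45a and Emp1.

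**Figure D2:**
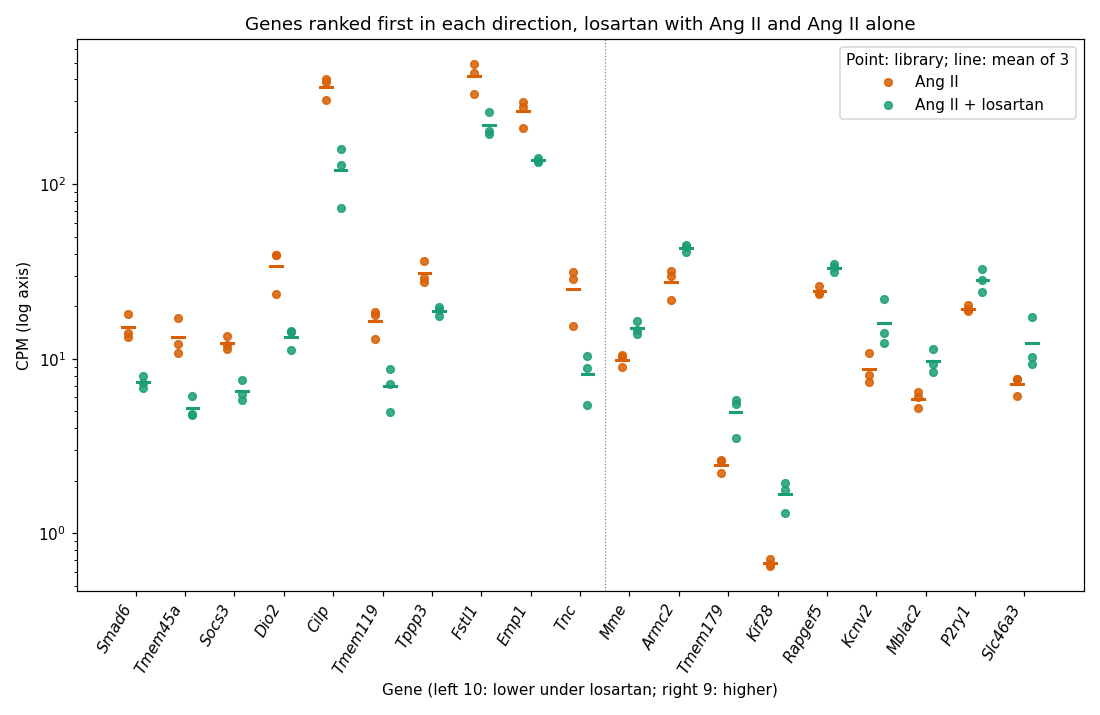
CPM on a log axis of the 10 lower and 9 higher genes described by rank of p, by library (points) with the mean of 3 (lines), in Ang II alone and losartan with Ang II. Groups do not overlap because the ranking required it. Emp1 has its 3 losartan libraries between 134 and 142 CPM.

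The log2 fold changes of the 9 genes described as higher under losartan ran from 0.43 to 1.30, and those of the 10 lower genes from -1.62 to -0.72. Mme, the membrane protease neprilysin that degrades natriuretic peptides and angiotensins, was at 14.7, 13.9 and 16.4 CPM under losartan and 10.4, 10.2 and 8.99 under Ang II (log2 fold change 0.60 ± 0.13, adjusted p = 0.184 in edgeR and 0.00455 in DESeq2). Saline controls held 12.03, 12.6 and 13.2, between both groups. Armc2 was at 44.9, 41.1 and 43.5 CPM against 21.7, 31.7 and 29.7, and saline controls were at 41.6, 45.3 and 42.1 (log2 fold change 0.64 ± 0.14). Tmem179 had a log2 fold change of 0.99 ± 0.23 and Rapgef5, an exchange factor for Rap GTPases, one of 0.43 ± 0.11. DESeq2 called these 4 genes (adjusted p = 0.00455 for Mme to 0.0307 for Rapgef5), and the fifth that it called higher was A530016L24Rik, an unnamed locus given here because of that count. The voltage-gated potassium channel subunit Kcnv2 was at 21.9, 12.4 and 14.0 CPM against 7.37, 10.8 and 8.02, and the purine receptor P2ry1 at 32.6, 24.2 and 28.3 against 20.2, 19.2 and 18.7. The log2 fold changes of Kcnv2, P2ry1, Kif28, Mblac2 and Slc46a3 ran from 0.55 to 1.30, and DESeq2 called none of these 5.

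Genes of the renin-angiotensin-aldosterone system went both ways. Of 20 listed genes 13 were tested, the renin gene Ren1 and the receptor genes Agtr1b and Agtr2 being too low. None was called by edgeR, DESeq2 or limma-voom with quality weights, 0 had an unadjusted p under 0.05 in edgeR, and the median log2 fold change was -0.04 (-0.07 with the atrial covariate) beside 0.003 over all tested genes. Lnpep, an aminopeptidase that binds angiotensin IV, was at 137.4, 99.65 and 112.9 CPM under losartan and 68.92, 90.21 and 78.18 under Ang II (0.56 ± 0.33, adjusted p = 0.697). It was the 1 member of 13 without overlap, where 9.22% of all tested genes lay higher in this way. The aminopeptidase Anpep was at 12.36, 21.37 and 16.87 against 27.22, 20.43 and 29.2 (-0.60 ± 0.32). Agtr1a, the main AT1 receptor gene of the mouse and the target of losartan, was at 32.5, 31.5 and 30.4 CPM under losartan, 24.04, 31.9 and 22.6 under Ang II and 39.2, 39.5 and 40.0 in saline controls. Its losartan and Ang II libraries overlapped (log2 fold change 0.27 ± 0.13, adjusted p = 0.622). The converting enzyme Ace was at 83.8, 106 and 104 CPM against 132, 102 and 128 (log2 fold change -0.30 ± 0.21), and angiotensinogen (Agt) had a log2 fold change of -0.26 ± 0.46. Leaving out 1 library took Agt from -0.50 (losartan replicate 1) to -0.06 (losartan replicate 3), Agtr1a from 0.17 (Ang II replicate 3) to 0.43 (Ang II replicate 2), and Rcan1, below, to -0.36 (Ang II replicate 3). Among 20 genes of Gq and calcineurin feedback the median was -0.15, against 0.01 with the atrial covariate and -0.08 without Ang II replicate 1. In 5 the groups did not overlap, all lower, beside 10.5% of all tested genes. They were the receptor kinase Grk5 (-0.40 ± 0.16), the arrestin Arrb2 (-0.36 ± 0.14), Nfatc4 (-0.55 ± 0.23), Rcan1 and the phosphatase Dusp5. The calcineurin regulator Rcan1 was at 135, 116 and 162 CPM against 169, 184 and 252 (log2 fold change -0.55 ± 0.38, adjusted p = 0.758).

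Matrix genes held the lists with the most DESeq2 calls. All 19 fibrillar and network collagens had a log2 fold change below 0, beside 49.4% of all tested genes, with a median of -0.99. For 13 of them the groups did not overlap, all lower, beside 10.5% of all tested genes. DESeq2 called 7, where it called 0.672% of all genes lower. With the atrial score as a covariate in edgeR the median was -0.36. Of 32 matricellular and matrix glycoprotein genes, 31 were below 0, 18 did not overlap and DESeq2 called 8, with a median of -0.94, which was -0.60 with the atrial covariate. No member was called by edgeR in either list. With the atrial score in DESeq2 0 of the 7 collagen calls and 1 of the 8 matricellular calls, Cilp, were made, as were 0 of the 6 for processing and crosslinking, 0 of the 3 proteases and inhibitors and 0 of the 3 fibroblast markers.

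Cilp, a matrix glycoprotein first known from cartilage, was at 160, 129 and 73.0 CPM under losartan, 404, 303 and 385 under Ang II and 56.6, 36.4 and 50.1 in saline controls. The losartan libraries lay apart from both other groups (log2 fold change -1.59 ± 0.28, 3.02-fold lower; adjusted p = 0.166 in edgeR and 6.99e-05 in DESeq2). Thbs4, a thrombospondin of stressed muscle, was at 76.2, 40.2 and 24.5 CPM against 165, 113 and 197 (log2 fold change -1.75 ± 0.35, DESeq2 adjusted p = 0.000639). Tnc, the matricellular protein tenascin-C, was at 10.4, 8.82 and 5.44 against 28.6, 15.3 and 31.6 (log2 fold change -1.62 ± 0.30, DESeq2 adjusted p = 0.000413). Ltbp2, which binds fibrillin microfibrils, was at 34.6, 35.0 and 18.7 against 110, 65.6 and 124 (log2 fold change -1.76 ± 0.38). In each of these 4 genes losartan replicate 3, with the lowest atrial score, was also the lowest of the 6 libraries. Losartan replicate 2, with a score of 0.64, lay below Ang II replicate 2, with one of 0.61. These are single libraries picked after their values were seen, and the part of the atrial signal was not tested.

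Among the collagens, Col8a1, a network collagen of vessel walls, was at 104, 91.6 and 67.6 CPM under losartan, 196, 141 and 204 under Ang II and 39.2, 44.2 and 54.1 in saline controls (log2 fold change -1.04 ± 0.20, DESeq2 adjusted p = 0.000735). Its partner Col8a2 was at 7.34, 7.03 and 2.32 against 28.6, 17.6 and 27.0 (log2 fold change -2.13 ± 0.48, DESeq2 adjusted p = 0.00348), and Col12a1, which decorates fibrils, at 14.3, 14.8 and 6.28 against 44.7, 27.4 and 54.2 (log2 fold change -1.84 ± 0.45, DESeq2 adjusted p = 0.0832). Col11a1 was at 1.53, 1.505 and 0.548 against 6.26, 3.41 and 8.62, and DESeq2 called it. In the main fibril collagens the groups did not overlap either. Col3a1 was at 512.5, 835.4 and 590.9 CPM against 1508, 965.5 and 1884 (log2 fold change -1.17 ± 0.31, adjusted p = 0.316 in edgeR and 0.0284 in DESeq2). Col1a1 was at 140, 215 and 164 CPM against 442, 249 and 493 (log2 fold change -1.19 ± 0.37, DESeq2 adjusted p = 0.0931). In both, losartan replicate 2 and Ang II replicate 2 were the nearest pair across the groups.

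**Figure D3:**
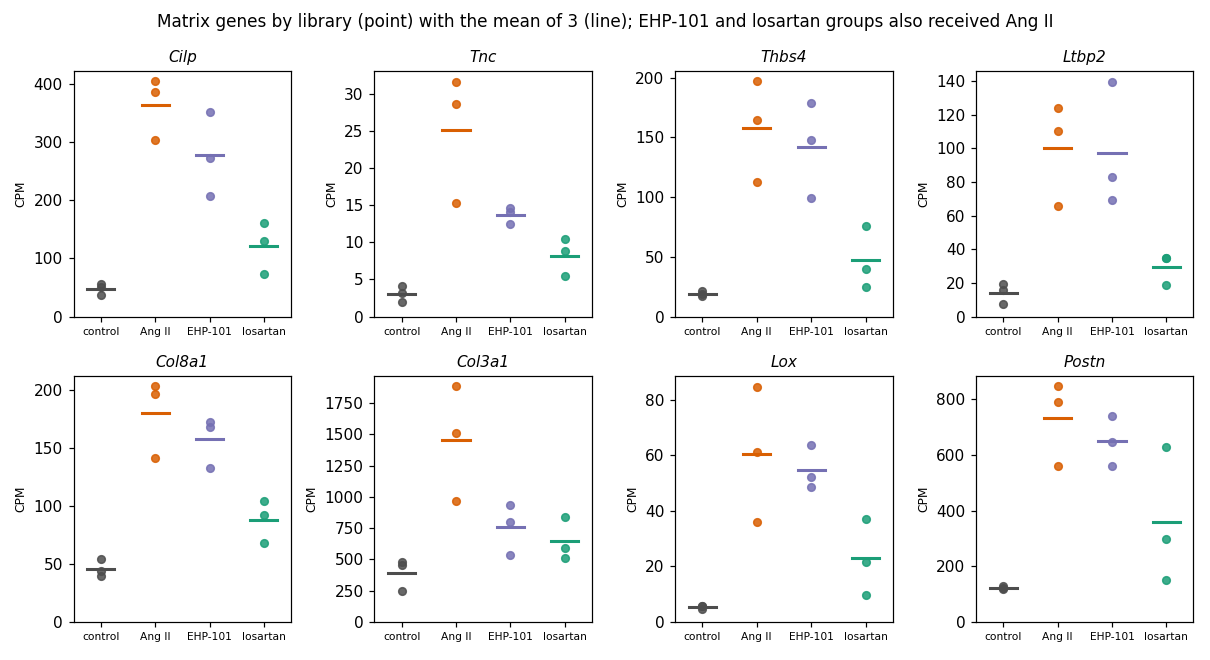
CPM of 8 matrix genes by library (points) with the mean of 3 (lines) in the saline, Ang II, EHP-101 and losartan groups, on axes from 0. Cilp under losartan lies between 73.0 and 160 CPM, above the saline libraries and below the Ang II ones, and Postn under losartan spreads from 149 to 630 CPM.

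Periostin (Postn), which activated fibroblasts secrete, differed widely within the losartan group, at 630, 297 and 149 CPM against 790, 560 and 848 under Ang II. The groups overlapped (log2 fold change -1.03 ± 0.37, adjusted p = 0.443 in edgeR and 0.209 in DESeq2), and the value was -1.72 without losartan replicate 1 and -0.66 without losartan replicate 3. Collagen processing and crosslinking genes had a median of -0.41 over 23 genes, and of -0.38 with the atrial covariate, so this list moved less with it than the collagens. Of them 22 were below 0, 14 lay lower without overlap, beside 10.5% of all tested genes, and DESeq2 called 6, beside 0.672%. The lysyl oxidases, which crosslink collagen, were at 46.5, 61.2 and 50.7 CPM against 108, 83.4 and 102 for Loxl1 (log2 fold change -0.89 ± 0.17), at 17.7, 16.0 and 11.3 against 36.7, 24.3 and 39.9 for Loxl3 (-1.17 ± 0.23) and at 37.0, 21.7 and 9.82 against 61.3, 35.8 and 84.6 for Lox (-1.41 ± 0.39). Lox overlapped by one library in each group, and opposite-strand genes overlap exons of Lox and Loxl3. The procollagen protease enhancer Pcolce had a log2 fold change of -0.70 ± 0.16 and the prolyl hydroxylase subunit P4ha3 one of -2.27 ± 0.51.

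Of 24 matrix proteases and inhibitors, 20 were below 0, with a median of -0.33 (-0.14 with the atrial covariate). In 9 the groups did not overlap, all lower, beside 10.5% of all tested genes. DESeq2 called Timp1, Mmp2 and Mmp23, where it called 0.672% of all genes lower. The protease inhibitor Timp1 was at 11.5, 9.49 and 5.06 CPM under losartan and 22.6, 18.1 and 56.4 under Ang II, where replicate 3 stood alone (log2 fold change -1.90 ± 0.43, DESeq2 adjusted p = 0.00348). Without that library the value was -1.23, and the list's median was -0.22 without losartan replicate 1. The gelatinase Mmp2 was at 109, 154 and 115 CPM against 272, 183 and 274 (log2 fold change -0.95 ± 0.22), and its activator Mmp14 at 31.6, 33.5 and 26.4 against 54.4, 38.0 and 53.4 (-0.67 ± 0.18). Mmp23 had a log2 fold change of -0.80 ± 0.18. The inhibitor and the proteases lay on the same side, below the Ang II libraries.

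Genes of the TGF-beta and BMP pathways had a median of -0.35 over 33 genes (-0.29 with the atrial covariate), with 28 below 0. For 18 the groups did not overlap, all lower, beside 10.5% of all tested genes, and DESeq2 called 6, beside 0.672%. The calls were Smad6, Fstl1, Bmp10, Id2, Pmepa1 and the ligand gene Tgfb3. Smad6 and Fstl1 were still called by DESeq2 with the atrial score, and Bmp10 is itself a marker in that score. Id2, a BMP target, was at 12.8, 13.01 and 10.8 CPM against 28.0, 16.9 and 22.4 (log2 fold change -0.88 ± 0.19, DESeq2 adjusted p = 0.0104), and Pmepa1, a TGF-beta target that dampens the pathway, was at 32.8, 42.4 and 42.7 against 64.5, 52.0 and 69.5 (-0.66 ± 0.16, DESeq2 adjusted p = 0.0324). Tgfb1 itself was at 17.7, 20.6 and 21.6 CPM against 22.6, 24.2 and 27.6 (-0.31 ± 0.17, adjusted p = 0.647 in edgeR). Ccn2, a matricellular target of TGF-beta and YAP, was at 290, 167 and 72.4 CPM against 224, 191 and 245. Its losartan libraries lay on both sides of the Ang II libraries (log2 fold change -0.31 ± 0.35), and the value was -0.87 without losartan replicate 1 and 0.06 without losartan replicate 3. The 13 CCN and YAP target genes had a median of -0.31 (-0.19 with the atrial covariate, -0.21 without losartan replicate 3) and DESeq2 called 0 of them. In edgeR 4, among them Ccn5 (-0.98 ± 0.32), were lower at an unadjusted p under 0.05, beside 6.14% of all tested genes.

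Of the lists with at least 5 tested genes, WNT ligands and antagonists had the lowest median, -1.01 over 17 genes, all below 0. Groups did not overlap for 9, all lower, beside 10.5% of all tested genes, and DESeq2 called 2, beside 0.672%. With the atrial covariate the median was -0.49 and DESeq2 made neither call, and without Ang II replicate 3 the median was -0.67. Frzb, a secreted antagonist of WNT ligands, was at 13.6, 14.1 and 8.73 CPM under losartan and 31.5, 21.1 and 42.0 under Ang II, with saline controls at 12.1, 7.27 and 10.6 (log2 fold change -1.38 ± 0.26, DESeq2 adjusted p = 0.000735). Wnt9b, a ligand of the endocardium, was at 1.39, 1.21 and 1.52 against 2.85, 2.87 and 5.25 (-1.41 ± 0.34, DESeq2 adjusted p = 0.0206), and the antagonists Sfrp5 and Sfrp1 had log2 fold changes of -2.28 ± 0.68 and -1.01 ± 0.32. The ligand and its antagonists lay on the same side. Of 10 endocardial markers all were below 0, beside 49.4% of all tested genes, with a median of -0.58 (-0.13 with the atrial covariate). Plvap, Tmem108, Hapln1, Gatm and Wnt9b did not overlap, all lower, beside 10.5% of all tested genes. The 13 genes of the insulin-like growth factor axis had a median of -0.62 (-0.26 with the covariate, -0.40 without losartan replicate 3), with Igfbp4, a binding protein, at 79.7, 106 and 80.1 CPM against 146, 120 and 162 (-0.69 ± 0.17) and Igf1 at 37.2, 37.3 and 30.7 against 60.5, 41.5 and 64.2 (-0.66 ± 0.20).

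The cells that make matrix were followed by their markers. The 20 fibroblast markers had a median of -0.24, and of -0.25 with the atrial covariate, with 18 below 0. For 7 the groups did not overlap, all lower, beside 10.5% of all tested genes, and DESeq2 called 3, beside 0.672%. The called ones were Pi16, a marker of adventitial fibroblasts, at 103, 130 and 104 CPM against 196, 149 and 181 (-0.64 ± 0.15), the microfibril gene Mfap4 (-1.11 ± 0.27) and Col1a2 (-1.22 ± 0.34), which is also a collagen of the matrix list. Their summed level ran from 3162 to 3713 CPM under losartan, from 3945 to 4949 under Ang II and from 2483 to 3993 in saline controls. Of 15 contractile genes of myofibroblasts and smooth muscle, 14 were below 0 with a median of -0.38 (-0.26 with the atrial covariate), and 0 had groups that did not overlap. Smooth muscle actin, Acta2, was at 106, 261 and 254 CPM against 256, 233 and 382 (-0.49 ± 0.29, adjusted p = 0.708), and the list's median was -0.17 without losartan replicate 1 and -0.83 without losartan replicate 2. edgeR had 3 of the 15 lower at an unadjusted p under 0.05, beside 6.14% of all tested genes. Pericyte and endothelial markers had medians of -0.09 and -0.12 (0.01 and -0.13 with the atrial covariate). Groups did not overlap for 0 of the 10 pericyte markers. Of the 21 endothelial markers 4 did not overlap, all lower, beside 10.5% of all tested genes. They were Eng, Plvap, Ednrb and Icam1. Without losartan replicate 1 Eng went from -0.35 to -0.15, Acta2 from -0.49 to -0.17. The vasoconstrictor endothelin (Edn1) had a log2 fold change of -0.50 ± 0.19.

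Inflammatory lists had medians below 0 with and without the atrial covariate. Chemokines and cytokines had a median of -0.60 over 26 genes (-0.74 with the covariate), macrophage and monocyte markers one of -0.51 over 28 (-0.71), MHC class II and dendritic cell genes one of -0.64 over 12 (-0.58), and IL6 family and acute phase genes one of -0.61 over 22 (-0.45). Groups did not overlap for 9, 11, 4 and 8 of them on the lower side. Of all tested genes 10.5% lay lower in this way, and DESeq2 called 0.672% lower. DESeq2 called Cxcl1, 0 macrophage markers, H2-Ab1 with H2-Eb1, and Socs3, of which Socs3 was also called with the atrial score in DESeq2. In edgeR 8 macrophage markers were lower at an unadjusted p under 0.05, beside 6.14% of all tested genes. Without Ang II replicate 3 these medians were -0.47, -0.34, -0.38 and -0.37, each its value nearest 0 among the fits that left out 1 library.

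Cxcl1, a chemokine for neutrophils, was at 0.929, 1.42 and 0.801 CPM under losartan, 5.58, 3.24 and 5.81 under Ang II and 1.54, 2.26 and 1.54 in saline controls. It was the member of its list that DESeq2 called (log2 fold change -2.21 ± 0.44, adjusted p = 0.166 in edgeR and 0.00103 in DESeq2). The cytokine Il6 was at 0.465, 0.209 and 0.253 CPM against 0.721, 0.664 and 5.29, where Ang II replicate 3 carried most of the difference (-2.85 ± 0.79, adjusted p = 0.316). Without that library the log2 fold change of Il6 was -1.17 and that of Serpina3n -0.92. Cxcl10, an interferon-induced chemokine, had a log2 fold change of -1.87 ± 0.49 and Cxcl16 one of -0.61 ± 0.16. The acute phase gene Serpina3n was at 54.9, 25.2 and 21.2 CPM against 74.6, 52.7 and 144, overlapping in 1 library of each group (-1.42 ± 0.43), and Fgl2 at 89.9, 84.97 and 80.0 against 131, 105 and 132 (-0.53 ± 0.17).

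Vsig4 was at 2.97, 0.920 and 1.73 CPM under losartan and 7.67, 6.31 and 7.01 under Ang II, with saline controls at 5.09, 2.48 and 2.13 (log2 fold change -1.91 ± 0.38, DESeq2 adjusted p = 0.000986 and 0.0231 with the atrial score). The class II genes H2-Ab1 and H2-Eb1, which present antigen, were at 30.0, 32.1 and 29.8 CPM against 43.5, 42.4 and 65.0 and at 33.3, 35.3 and 31.2 against 48.6, 46.2 and 75.1. Their losartan libraries lay close together (log2 fold changes -0.72 ± 0.18 and -0.77 ± 0.19, DESeq2 adjusted p = 0.0396 and 0.0404). H2-Aa followed with -0.76 ± 0.22 and the dendritic cell lectin Cd209a with -1.42 ± 0.43. Among macrophage markers, Ccr2, the chemokine receptor of recruited monocytes, was at 13.2, 9.16 and 6.92 CPM against 16.9, 12.3 and 28.9 and overlapped (-0.99 ± 0.36). Lgals3 (-1.26 ± 0.37), Plac8 (-1.56 ± 0.51) and the Fc receptor Fcgr1 (-0.77 ± 0.27) did not. Without Ang II replicate 3 the values were -0.77 for Plac8, -0.48 for Fcgr1, -0.59 for Ccr2, -0.51 for H2-Eb1, -0.49 for H2-Aa and -0.92 for Cd209a, and without losartan replicate 2 Lgals3 was at -1.89. Cd207, the Langerhans cell lectin, was the 1 gene that edgeR called in a fit of these 2 groups alone and was named after that. It was at 0.418, 0.167 and 0.169 CPM against 6.26, 5.57 and 4.05.

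**Figure D4:**
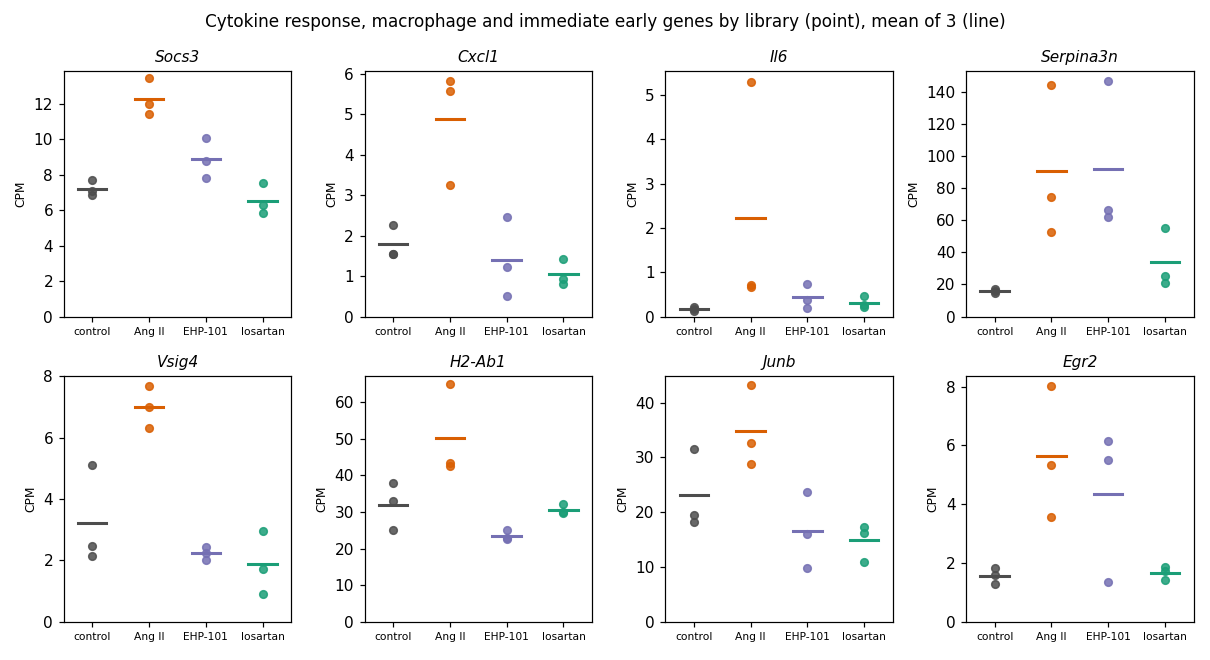
CPM of 8 cytokine response, macrophage, antigen presentation and immediate early genes by library (points) with the mean of 3 (lines) in the saline, Ang II, EHP-101 and losartan groups, on axes from 0. For Il6 and Serpina3n one Ang II library, at 5.29 and 144 CPM, lies far above the rest of its group, and for Socs3 and H2-Ab1 the losartan libraries lie close together.

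Immediate early genes, which growth factor and stretch signals induce within minutes, had a median of -0.41 over 23 genes (-0.45 with the atrial covariate), with 20 below 0. For 10 the groups did not overlap, all lower, beside 10.5% of all tested genes, and DESeq2 called 3, beside 0.672%. Junb was at 16.2, 17.4 and 11.01 CPM under losartan and 43.2, 28.9 and 32.6 under Ang II (log2 fold change -1.23 ± 0.30), and Egr2 at 1.86, 1.72 and 1.43 against 5.32, 3.57 and 8.02 (-1.76 ± 0.45). Nr4a1, a nuclear receptor induced in the same way, was at 9.16, 18.9 and 12.99 against 47.1, 22.6 and 29.5 (-1.27 ± 0.35). DESeq2 called these 3 (adjusted p = 0.0209, 0.0246 and 0.0432), and with the atrial score 0 of them. Fos was at 6.79, 14.4 and 6.83 CPM against 73.7, 15.4 and 25.5, where Ang II replicate 1 stood far above (-2.03 ± 0.54, DESeq2 adjusted p = 0.0902), and without it the value was -1.12. Of 21 unfolded protein and integrated stress genes 18 were below 0, with a median of -0.32 (-0.48 with the atrial covariate). In 8 the groups did not overlap, all lower, beside the same 10.5%. DESeq2 called 0. Beside 6.14% of all tested genes, edgeR had 8 of the list lower at an unadjusted p under 0.05. They included the chaperones of the secretory pathway Calr at 185, 232 and 285 CPM against 315, 298 and 325 (-0.42 ± 0.16, and -0.27 without losartan replicate 1), Pdia3 (-0.44 ± 0.15), Sdf2l1 (-0.86 ± 0.27) and Creld2 (-0.57 ± 0.22).

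Libraries of the 2 groups overlapped for the best known genes of cardiomyocytes. The natriuretic peptides, released by stretched cardiomyocytes, overlapped between the groups, with Nppa at 184, 614 and 42.9 CPM against 628, 538 and 399 (-0.90 ± 0.68) and Nppb at 427.0, 277.4 and 214.5 against 370.4, 354.2 and 423.9 (-0.32 ± 0.69). Nppa is also on the atrial list, and losartan replicate 2 was its highest losartan library. Without it Nppa was at -2.20, and Nppb ran from -0.64 to -0.12 without losartan replicates 1 and 3. The fetal myosin Myh7 was at 876.1, 595.4 and 302.2 CPM against 838.0, 498.9 and 600.8 (-0.13 ± 0.42), and Myh6 had a log2 fold change of 0.13 ± 0.30. Sprr1a, a stress-induced gene, was at 1.11, 0.878 and 0.0843 CPM against 2.70, 2.20 and 6.07 (-2.41 ± 0.59, DESeq2 adjusted p = 0.0166) and was the 1 called of 22 stress and fetal programme genes. Of 13 ventricular markers 11 were above 0 with a median of 0.29 (0.16 with the atrial covariate). Kcnv2, Sbk1 and the potassium channel partner Kcnip2 did not overlap, all higher, beside 9.22% of all tested genes. Kcnv2 was also described above by a rule that required this. Kcnip2 was at 167, 165 and 183 CPM against 111, 154 and 139. The median of 15 pan-cardiomyocyte markers was 0.20 (0.18 with the covariate), with phospholamban, Pln, at 6701, 5294 and 5997 CPM against 4172, 5307 and 4469 (0.37 ± 0.16).

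Energy metabolism genes had medians above 0 and 0 calls in edgeR and DESeq2. The 37 genes of fatty acid uptake and oxidation had a median of 0.33. In edgeR 8 of them were higher at an unadjusted p under 0.05, beside 2.26% of all tested genes, and 1 was lower. Groups did not overlap for 2 on the higher side, beside 9.22% of all tested genes, and for 1 on the lower. The 19 tricarboxylic acid cycle genes had a median of 0.23. The 43 nuclear genes of oxidative phosphorylation had one of 0.17 with 1 below 0, beside 49.4% of all tested genes. The 13 genes of the mitochondrial genome had one of 0.32. The dehydrogenase Acadm was at 1084, 859.4 and 978.6 CPM under losartan and 632.9, 860.9 and 665.7 under Ang II (0.44 ± 0.16), and Hadh (0.42 ± 0.18), Decr1 (0.39 ± 0.16) and Sdha (0.34 ± 0.17) overlapped likewise, Ang II replicate 2 being high. With the atrial covariate these medians were 0.19, 0.03, -0.18 and 0.11, so the sign of the oxidative phosphorylation list depended on it. Without losartan replicate 1 the medians were 0.21 for fatty acid genes, 0.10 for oxidative phosphorylation and 0.20 for the mitochondrial genome, and without Ang II replicate 2 that of the tricarboxylic acid cycle was 0.38 and that of oxidative phosphorylation 0.27. Losartan replicate 1 was the highest of the 6 libraries for mt-Nd5, which shares bases with mt-Nd6 on the other strand, at 40720 CPM against 27390 and 27860 in replicates 2 and 3. It also held 2811 CPM of Pdk4, the kinase that restrains pyruvate oxidation, where the other 2 losartan libraries held 422.5 and 293.0 and the Ang II libraries 337.9, 574.7 and 289.6. Per1, a clock gene that glucocorticoids induce, was at 61.8, 40.1 and 14.5 CPM against 17.4, 23.2 and 17.4, and the median of 15 glucocorticoid-responsive genes went from 0.46 to -0.19 without losartan replicate 1 (0.13 with the atrial covariate). Without that library Pdk4 went from 1.55 to -0.16 and Per1 came to 0.50. The adipocyte list, which holds Pparg (0.26 ± 0.21), went from a median of 0.12 to -2.12 without losartan replicate 2 (0.41 with the atrial covariate), and the cannabinoid receptor gene Cnr2 had a log2 fold change of -0.16 ± 0.31.

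**Figure D5:**
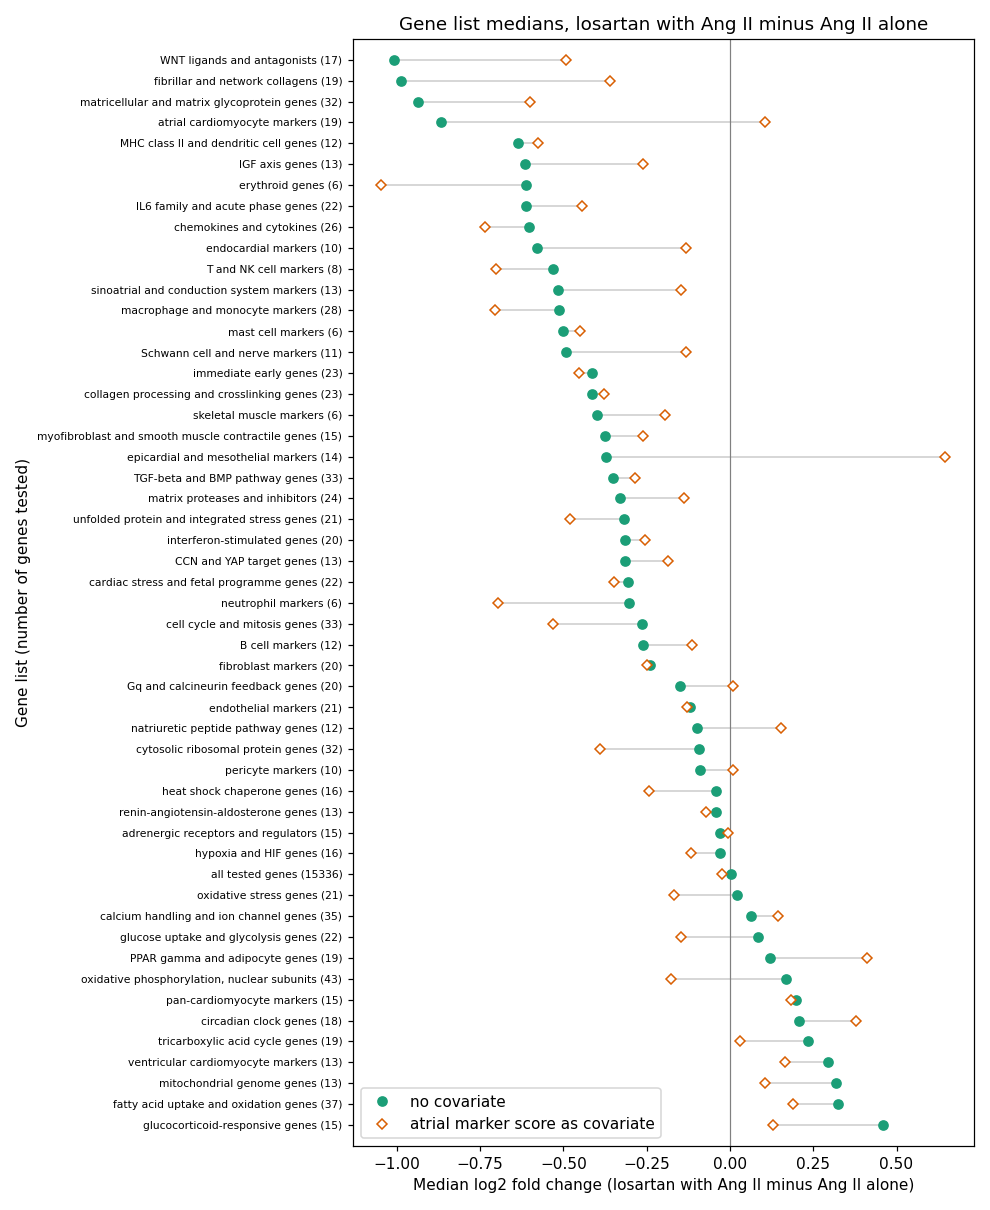
Median log2 fold change, losartan with Ang II minus Ang II alone, over the tested genes of each list (number in parentheses), from edgeR without a covariate (filled circles) and with the atrial marker score as a covariate (open diamonds). The WNT, collagen, matricellular and endocardial lists lie nearer 0 with the covariate. To a lesser extent the MHC class II and IL6 family lists do too, and the macrophage and chemokine lists lie farther from 0. The atrial list makes up the score, so its shift follows from the fit.

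Against saline controls edgeR called 0 genes in the losartan group, with 1640 (10.7%) at an unadjusted p under 0.05 in either direction. DESeq2 called 22 (0.17%), limma-voom 0 and limma-voom with quality weights 4 (0.0261%). Between Ang II alone and saline edgeR called 83 genes (0.541%), 79 of them higher (0.515%). These comparisons share libraries with each other and with that of losartan and Ang II, so the values are set side by side without a test. Over the 79 genes the median log2 fold change was 1.85 for Ang II minus saline, 0.72 for losartan minus saline and -1.09 for losartan minus Ang II. The genes were chosen for being high in these same Ang II libraries, so a losartan level below Ang II follows in part from the choice and the counts are a description. The losartan mean lay between the means of saline and Ang II for 77 of the 79 and below the saline mean for 2. The losartan libraries all lay below the Ang II libraries for 65 (10.5% of all tested genes), and all above the saline libraries for 40, where 8.27% of all tested genes had losartan above saline in this way.

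Genes among those with the largest differences between Ang II and saline were Cthrc1, Igfbp2, Sprr1a, C1qtnf3, Col11a1, Lox, P4ha3, Thbs4 and Tnc. Cthrc1, a secreted protein of activated fibroblasts, was at 6.88, 2.93 and 0.970 CPM under losartan, 13.9, 7.68 and 17.3 under Ang II and 0.543, 0.646 and 0.209 in saline hearts. Each losartan library lay above each saline library and below each Ang II library, and losartan replicate 1 was nearest to Ang II. Igfbp2, which binds insulin-like growth factors, was at 1.02, 1.34 and 0.211 against 2.54, 1.29 and 6.56 under Ang II, and the adipokine-like C1qtnf3 at 4.69, 1.34 and 0.675 against 4.97, 3.90 and 8.66. Both overlapped with Ang II. For these 9 genes the log2 fold changes of losartan minus saline ran from 1.005 (P4ha3) to 3.10 (C1qtnf3) and those of losartan minus Ang II from -2.41 (Sprr1a) to -1.40 (C1qtnf3). The last value was -2.53 without losartan replicate 1, and leaving out Ang II replicate 3 took Igfbp2 from -2.01 to -1.16.

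The comparison of losartan with EHP-101, both given with Ang II, is the test of the difference between the 2 treatments. edgeR called 0 genes, with 927 (6.04%) at an unadjusted p under 0.05, and DESeq2 called 27 (0.183%), limma-voom 0 and limma-voom with quality weights 2 (0.013%). The smallest adjusted p in edgeR, 0.0748, belonged to Mthfd1l, a mitochondrial enzyme of one-carbon metabolism named after its values were seen. It was at 0.744, 0.711 and 0.717 CPM under losartan, 2.07, 2.48 and 2.23 under EHP-101, and 1.29, 1.45 and 1.24 under Ang II alone. Matrix genes were lower under losartan than under EHP-101 in their medians, -0.61 for matricellular genes and -0.38 for collagens, and the inflammatory lists went both ways, with 0.34 for macrophage and monocyte markers, 0.39 for MHC class II genes, 0.13 for chemokines and cytokines, -0.24 for IL6 family and acute phase genes and 0.00 for interferon-stimulated genes. For Cilp the log2 fold change of losartan minus EHP-101 was -1.20 (adjusted p = 0.506), for Thbs4 it was -1.60 (adjusted p = 0.472) and for Smad6 -0.88 (adjusted p = 0.196), all from edgeR. None of these genes passed the test, and the list medians between the treatments were not tested.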

How the data were processed

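RNA of 12 mouse heart samples was sequenced on a HiSeq 2500 from 300 ng of RNA as 50 bp single-end reads, per the labels' protocols, with a kit that keeps no strand. The deposited values are raw counts per gene. fastp 0.20.0, HISAT2 2.1.0, featureCounts 2.0.0, edgeR 3.30.0 and the build GRCm38 are named per the submitters' processing notes, without their settings. Gene names and positions come from GENCODE M21 of GRCm38.

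The count columns were grouped by title. Genes were kept by filterByExpr, scaled by TMM and tested with edgeR 4.0.16 (robust quasi-likelihood, 1 mean per group over all 12 libraries, Benjamini-Hochberg adjustment, threshold 0.05) in R 4.3.3. An SE is the log2 fold change divided by the square root of F, so it restates the test. The common biological coefficient of variation was 0.189. DESeq2 1.42.0 and limma 3.58.1 were alternatives, as were the low-count filter, the groups fitted, an atrial marker covariate and leaving out each library. DESeq2 with the atrial score or with libraries left out was added after the data were seen. The tests were tested on simulated data. Figures used Python 3.11.15, pandas 2.3.3 and matplotlib 3.10.9.

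Genes named in the text were the 10 in each direction with the smallest p among those with separate groups and a mean of at least 1 CPM, up to 4 members of each list with the smallest p, a set of preset genes, and the 10 called genes with the largest Ang II effect. Some genes that this rule names are not reported here. Members and lists were chosen with earlier results of these data known. Genes named because a count of 5 or fewer fell on them were chosen after their values were seen. Of 124 genes named, 32 share exon bases with another gene, 29 of them with one on the other strand, and their counts are uncertain. Lists with fewer than 5 tested genes are not described. With 3 libraries on each side, exact permutation gives no p under 0.1 and was not used.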

Additional observations from a re-analysis of the deposited data

How the results depend on the processing

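Between losartan with Ang II and Ang II alone, 0 genes were called by edgeR, also with DESeq2's size factors or the atrial covariate, and by limma-voom. There were 106 with DESeq2, 609 with quality weights, 30 with no low-count filter, 1 in a fit of the 2 groups alone and 15 with DESeq2 and the atrial score. Leaving out 1 library gave 0 to 3 calls in edgeR, the 3 without Control replicate 2, and in DESeq2 22, 238 and 10 without Ang II replicates 1 to 3, 69, 159 and 26 without losartan replicates 1 to 3 and 369 without Control replicate 2. Calls among listed genes numbered 0 in edgeR, 44 in DESeq2, 101 with quality weights, 11 with no filter, 5 with DESeq2 and the atrial score, 0 to 1 in edgeR without 1 library and, in DESeq2 without the same libraries in that order, 12, 71, 4, 30, 57, 14 and 92.

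Against saline, losartan gave 22 calls in DESeq2 and 4 with quality weights. Against EHP-101 it gave 27, 2 with quality weights, 3 with no filter and 0 to 2 without 1 library. Ang II against saline gave 83 calls, 535 in DESeq2, 52 in limma-voom, 2599 with quality weights, 167 with no filter, 20 in a fit of 2 groups, 45 with the atrial covariate and 8 to 151 without 1 library.

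Of the genes named, the sign changed with the atrial score in edgeR and in DESeq2 for Myh7 (0.58 in both). It also changed for Myl7 (0.07 and 0.06), Sln (0.27 and 0.22) and Myl4 (0.12 and 0.11). Myl7, Sln and Myl4 are among the 19 markers that make up the score, so their shift towards 0 follows from the fit. Without 1 library, edgeR's log2 fold change ran from -0.87 to 0.06 for Ccn2, -0.01 to 0.31 for Myh6, -0.52 to 0.19 for Myh7 and -0.16 to 2.01 for Pdk4. DESeq2 without 1 library turned the sign of the same genes, to 0.07 for Ccn2, 0.00 for Myh6, 0.11 and 0.20 for Myh7 and -0.16 for Pdk4. The cause was not tested.

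With the replicate number as a block edgeR called 0 genes between losartan and Ang II. Same-numbered libraries correlated at -0.018, -0.244 and -0.012 in their deviations, and none correlated best with its own number, so the numbers were not taken to pair them.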
